A study of Mus musculus with 30 samples.

Results

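Adrenergic receptors are the cell surface receptors through which noradrenaline and adrenaline act. The members described here are 8 mouse genes of the family, Adra1a, Adra1b, Adra1d, Adra2a, Adra2b, Adra2c, Adrb1 and Adrb3, and were chosen by the gene name that the array files give each probe. The array holds 12 probes of 7 of these genes, out of 41174 probes and 28146 distinct gene names, and no probe is named Adrb3. The mice were adult males on a C57Bl/6J background, Per3-/- animals and their wild-type (WT) litter mates, and all lived under an ultradian cycle of 3.5 h light and 3.5 h dark until tissue was taken in cycle 17. RNA came from a block of hypothalamic tissue that includes the suprachiasmatic nucleus (8 WT and 8 Per3-/- mice) and from the whole eye (7 WT and 7 Per3-/- mice), with 1 array per mouse and tissue. Per3-/- mice carry a germline knockout of Per3, a period gene of the circadian clock, and no other allele or agent is named for either genotype.

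The family has 3 branches that differ in the G protein they use. Alpha 1 receptors (Adra1a, Adra1b, Adra1d) couple to Gq and phospholipase C and raise cell calcium, alpha 2 receptors (Adra2a, Adra2b, Adra2c) couple to Gi and lower cyclic AMP, and beta receptors (Adrb1, Adrb3) couple to Gs and raise it. In the brain noradrenaline reaches the hypothalamus from brainstem neurons and acts on arousal, feeding and hormone release. In the eye it comes from sympathetic fibres, which widen the pupil through alpha 1 receptors of the iris dilator muscle, and alpha 2 and beta receptors of the ciliary body are drug targets in glaucoma.

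Values are log2 signals minus the 75th percentile of the array, so 0 is the 75th percentile and each unit is a 2-fold step. Probes differ in how brightly they hybridise, so a level is compared between samples for 1 probe and never between probes. The 75th percentile lay between 1131 and 2207 intensity units over the 30 arrays, and the scanner software marked 67.9% to 80.7% of an array's probes as well above background. The targeted gene Per3 has 1 probe, A_51_P258493, which was lower in Per3-/- mice by a difference of -0.51 in the hypothalamus (standard error 0.09, limma adjusted p = 0.067) and -0.45 in the eye (standard error 0.23, adjusted p = 1). A signal remained in both genotypes, and which part of the gene was deleted relative to this probe was not determined here. The tissue labels held for most of their defining markers. All 8 retina and lens markers were higher in the eye by more than 2-fold, and 7 of 8 hypothalamic markers were higher in the hypothalamus, Six6 being the exception. The hypothalamic arrays differed in pituitary content, since the summed signal of 5 anterior pituitary markers lay between -0.24 and 1.22 on 14 arrays but at 5.36 in WT mouse 5 and 9.62 in Per3-/- mouse 1. Leaving out either of these arrays changed no call on a receptor probe between genotypes.

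Probe sequences are given for 4 genes, namely Adra2a, Adrb1 and Adra1b, whose probes at different positions gave different values, and Adra1d, whose probe shares a motif with that of Adra2a. They are 60-mers as the array files give them, read 5′ to 3′, with positions on mouse assembly mm9. Capitals mark the codons of the NPxxY motif, a conserved stretch of the seventh transmembrane helix of this receptor class, searched with the bases that differ between the Adra2a and Adra1d capitals left free. On either strand this pattern occurs in 19 of the 41174 probes (0.0461%), and other codons for the same motif were not searched. The 2 of the 12 receptor probes that hold it are those it was built from. Their match was fixed in advance and says nothing about enrichment.
Adra2a A_51_P423000, chr19:54121975-54122034, plus strand: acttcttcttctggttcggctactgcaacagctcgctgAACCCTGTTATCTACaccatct
Adra1d A_51_P252534, chr2:131372160-131372219, minus strand: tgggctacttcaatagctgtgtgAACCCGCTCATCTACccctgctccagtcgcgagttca
Adrb1 A_51_P203827, chr19:56797242-56797301, plus strand: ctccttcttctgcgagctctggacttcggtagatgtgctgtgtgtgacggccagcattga
Adra1b A_51_P276766, chr11:43648881-43648940, minus strand: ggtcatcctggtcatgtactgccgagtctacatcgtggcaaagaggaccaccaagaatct
The Adra2a and Adra1d probes hold the marked codons, and the Adrb1 and Adra1b probes shown hold no match. For Adra2a, Adrb1 and Adra1b a further probe lies downstream of the one shown, by 1325, 1973 and 60067 bases along the chromosome.

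All 12 probes were well above background on all 16 hypothalamic arrays. In the eye 11 of the 12 were well above background on all 14 arrays, and the exception was the Adra1a probe A_52_P424778, whose signal was marked as well above background on 0 of the 14.

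**Figure D1:**
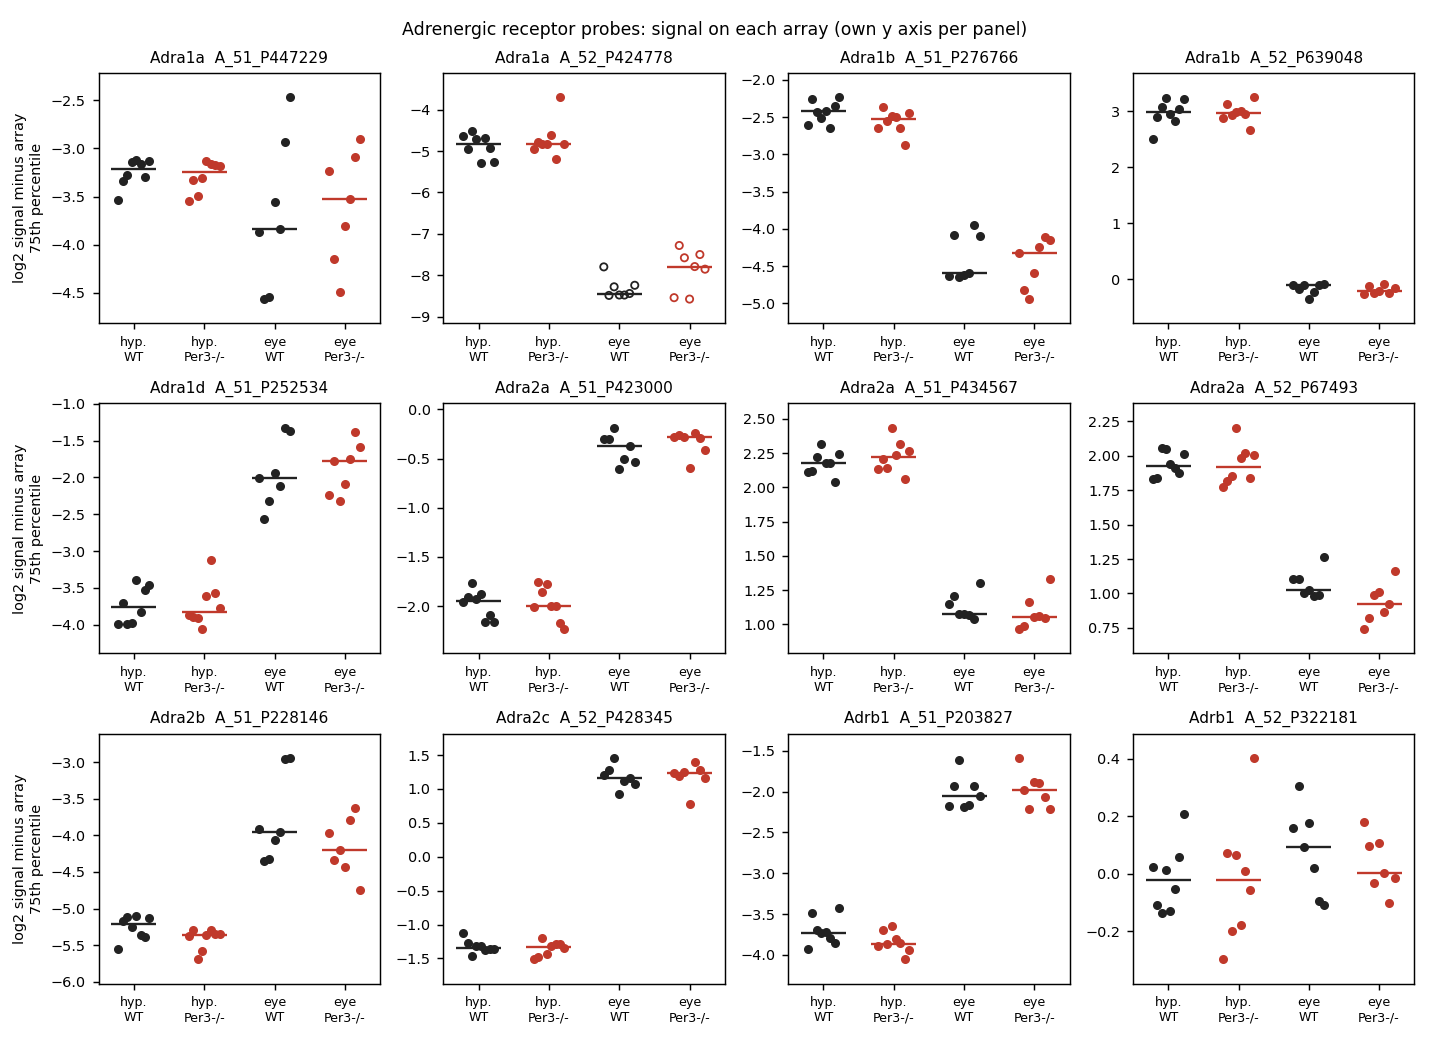
Log2 signal minus the array's 75th percentile (y axis, with a scale of its own in each panel) for the 12 adrenergic receptor probes on each array, by tissue and genotype (x axis; black, WT; red, Per3-/-). Filled points are well above background, open points are not, and bars are group medians. The eye points of Adra1a A_52_P424778 are all open. For 10 of 12 probes the eye and hypothalamus do not overlap while the genotypes do. The share of all probes without such overlap was not counted, and 83.1% of all probes differed between tissues at an adjusted p under 0.05 (limma).

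The first comparison asks in which tissue each receptor gave more signal. Between eye and hypothalamus 11 of the 12 probes differed at an adjusted p under 0.05 (limma, mouse as random block, Benjamini-Hochberg adjustment over all probes). Over all probes 83.1% passed the same test, so the share of receptor probes is near the background. Differences above 2-fold in favour of the eye were seen for 5 of the 12 probes against 26.6% of all probes, and in favour of the hypothalamus for 4 of the 12 against 18.0% of all. The median difference, eye minus hypothalamus, was -0.15 over the 12 probes and 0.19 over all probes. Each slide and each version of the extraction software held 1 tissue only, so tissue, slide and extraction version cannot be told apart. The normexp alternative given below read the mean signal of a spot on hypothalamic arrays and the median signal on eye arrays. Its values between tissues therefore differ in the signal read as well as in the background correction. In bulk tissue a lower signal can also mean fewer cells of a type or less RNA per cell, which cannot be told apart here.

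Among the alpha 1 receptors, Adra1b was higher in the hypothalamus and Adra1d higher in the eye. The log2 signal of Adra1b probe A_52_P639048 ran from 2.51 to 3.25 (median 2.97) on the hypothalamic arrays and from -0.35 to -0.08 (median -0.16) on the eye arrays. The tissues did not overlap, and the difference of -3.15 (standard error 0.06, adjusted p = 3.45e-28, limma) corresponds to 8.87-fold more signal in the hypothalamus. The upstream Adra1b probe A_51_P276766 pointed the same way, with -2.87 to -2.24 (median -2.49) in the hypothalamus, -4.94 to -3.95 (median -4.46) in the eye and a difference of -1.92 (standard error 0.09, adjusted p = 1.59e-18), which was -1.11 under normexp background correction. Every one of the 14 mice with both tissues, matched by genotype and replicate number, had the lower value in the eye with both probes.

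Adra1d, which contracts arterial smooth muscle, has 1 probe of that name. Its signal ran from -4.06 to -3.13 (median -3.80) in the hypothalamus and from -2.57 to -1.32 (median -1.97) in the eye. All eye arrays lay above all hypothalamic arrays, by 1.82 on average (standard error 0.12, adjusted p = 1.00e-14), and the 5 smooth muscle markers were also all higher in the eye by more than 2-fold. So were all 5 adipocyte and all 5 skeletal muscle markers. The median differences were 3.21 for smooth muscle, 7.05 for adipocyte and 8.77 for skeletal muscle markers. The part of smooth muscle or other tissue content in the Adra1d difference was not tested.

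Adra1a, the main alpha 1 receptor of the iris dilator, depended on the probe. With A_51_P447229 the signal ran from -3.55 to -3.12 (median -3.23) in the hypothalamus and from -4.57 to -2.47 (median -3.68) in the eye, so the eye values surrounded those of the hypothalamus. The difference of -0.37 (standard error 0.17, adjusted p = 0.0388) passed the test, but 5 of 14 mice had the higher value in the eye. It did not pass with WT arrays only (-0.44, adjusted p = 0.135), with normexp background correction (-0.10, adjusted p = 0.543), or without any one of 8 mice, WT or Per3-/- mice 3, 4, 5 and 6 (adjusted p from 0.0545 to 0.1). Under quantile normalization it was -0.84 (adjusted p = 2.93e-06). With A_52_P424778, 5285 bases further along the chromosome, the signal ran from -5.28 to -3.70 (median -4.83) in the hypothalamus and from -8.58 to -7.28 (median -8.26) in the eye, where no array measured it above background. The limma difference was -3.30 (adjusted p = 8.13e-20) and rests on the background signals of the eye. As a bound, given without a test, the signal was at least 2.84-fold higher in the hypothalamus. Under normexp background correction the difference was only -0.47 (limma, adjusted p = 0.025), below that bound. That bound sets the hypothalamic mean against, on each eye array, the higher of the probe's own signal and the lowest signal of any probe well above background.

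Among the alpha 2 receptors, Adra2c and Adra2b were higher in the eye. The signal of Adra2c, a receptor that curbs transmitter release from noradrenergic endings, ran from -1.51 to -1.13 (median -1.33) in the hypothalamus and from 0.78 to 1.46 (median 1.20) in the eye. The tissues stood well apart, with a difference of 2.52 (standard error 0.05, adjusted p = 7.99e-27) or 5.73-fold, the widest in favour of the eye among the 12 probes. Adra2b, known from vascular smooth muscle, ran from -5.70 to -5.10 (median -5.35) in the hypothalamus and from -4.75 to -2.94 (median -4.01) in the eye, a difference of 1.36 (standard error 0.13, adjusted p = 3.79e-11) with no overlap. The Adra2b difference was 0.73 under quantile normalization and 0.90 under normexp, less than 2-fold in both.

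Adra2a, the autoreceptor of noradrenergic neurons and the alpha 2 receptor of many of their targets, has 3 probes, and these pointed in opposite directions. The upstream probe A_51_P423000 ran from -2.24 to -1.75 (median -1.98) in the hypothalamus and from -0.60 to -0.19 (median -0.30) in the eye, so it was higher in the eye by 1.61 (standard error 0.05, adjusted p = 1.01e-21). The probe A_51_P434567, at chr19:54123300-54123359, ran from 2.04 to 2.44 (median 2.19) in the hypothalamus and from 0.96 to 1.33 (median 1.07) in the eye, a difference of -1.09 (standard error 0.04, adjusted p = 9.07e-21). The adjoining probe A_52_P67493, at chr19:54123360-54123419, gave -0.94 (standard error 0.04, adjusted p = 5.28e-18). With none of the 3 did the tissues overlap, and all 14 mice showed each direction.

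Adrb1, the beta receptor through which heart rate rises, differed between its 2 probes as well. The upstream probe A_51_P203827 ran from -4.06 to -3.42 (median -3.80) in the hypothalamus and from -2.22 to -1.59 (median -2.02) in the eye, without overlap and with a difference of 1.78 (standard error 0.06, adjusted p = 7.06e-21). The downstream probe A_52_P322181, at chr19:56799215-56799274, ran from -0.30 to 0.40 (median -0.02) in the hypothalamus and from -0.11 to 0.30 (median 0.06) in the eye. The tissues overlapped on this probe, with a difference of 0.07 (95% interval -0.04 to 0.19, adjusted p = 0.23), and 8 of 14 mice had the higher value in the eye. Under normexp background correction the same difference was 0.13 with an adjusted p of 0.044.

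**Figure D2:**
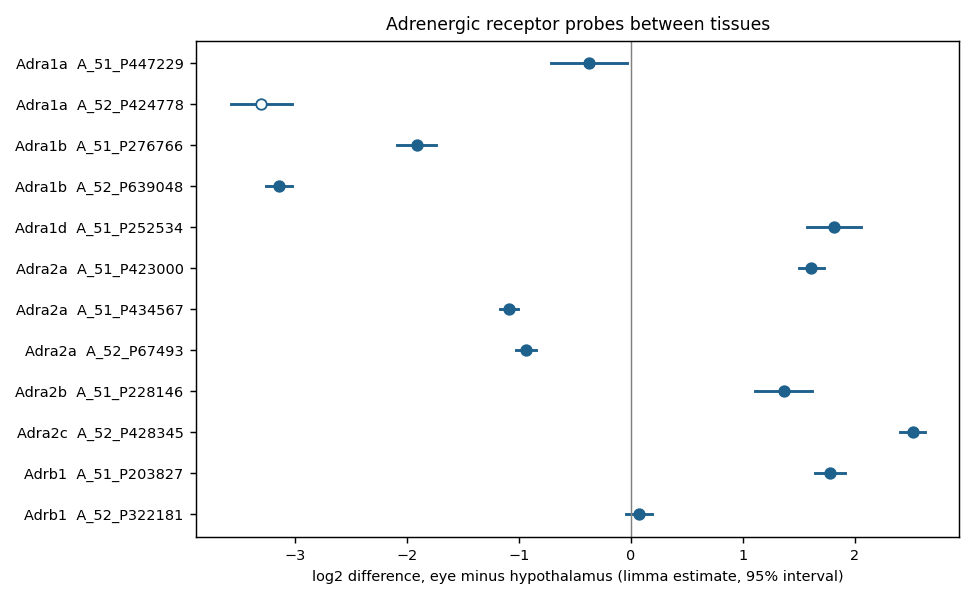
Log2 difference, eye minus hypothalamus (x axis; points, limma estimate; lines, 95% interval), for the 12 receptor probes (y axis). The open point marks the probe not well above background in the eye; the 3 Adra2a probes fall on both sides of 0, and only one Adrb1 probe stands away from 0.

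The disagreement between probes of 1 gene was measured within each array, a comparison chosen after these values were seen. The log2 signal of the upstream probe was subtracted from that of the downstream probe. The eye was then compared with the hypothalamus of the same mouse (14 mice, two-sided exact sign-flip permutation test, 6 probe pairs). Arrays of the same genotype and replicate number were taken as 1 mouse, which the labels do not state in words. Over all probes detected on every array, deviations of the 14 matched eyes and hypothalami had correlations from -0.11 to 0.187, with 5 over 0.1. The p-values below rest on this matching. For Adra2a the downstream probe A_51_P434567 lost 2.72 ± 0.18 (SD) against A_51_P423000 in the eye, and A_52_P67493 lost 2.57 ± 0.20. For Adrb1 the downstream probe lost 1.75 ± 0.30 and for Adra1b 1.25 ± 0.35. In each of these 4 pairs all 14 mice changed in the same direction, with p = 0.00012, also after Benjamini-Hochberg adjustment over the 6 pairs, the smallest value the exact permutation test can give with 14 mice. For Adra1a the loss was 2.93 ± 0.78, given without a test because its downstream probe was at background in the eye, and it was -0.38 under normexp. The limma difference of the Adra1b pair went from -1.23 to -0.69 under quantile normalization and to -1.95 under normexp.

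The sixth pair served as a comparison, because the 2 downstream Adra2a probes adjoin each other without a gap. Their difference changed by 0.14 ± 0.06 (SD) over the 14 mice, all in the same direction and with the same exact permutation p of 0.00012, so the test does not separate this pair from the others and the size does. Across arrays their deviations from the genotype means had r = 0.89 in the hypothalamus (16 arrays) and 0.93 in the eye (14 arrays). The upstream Adra2a probe had r = 0.29 with A_51_P434567 in the hypothalamus and -0.17 in the eye. These are descriptions over arrays that share the array's scaling.

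**Figure D3:**
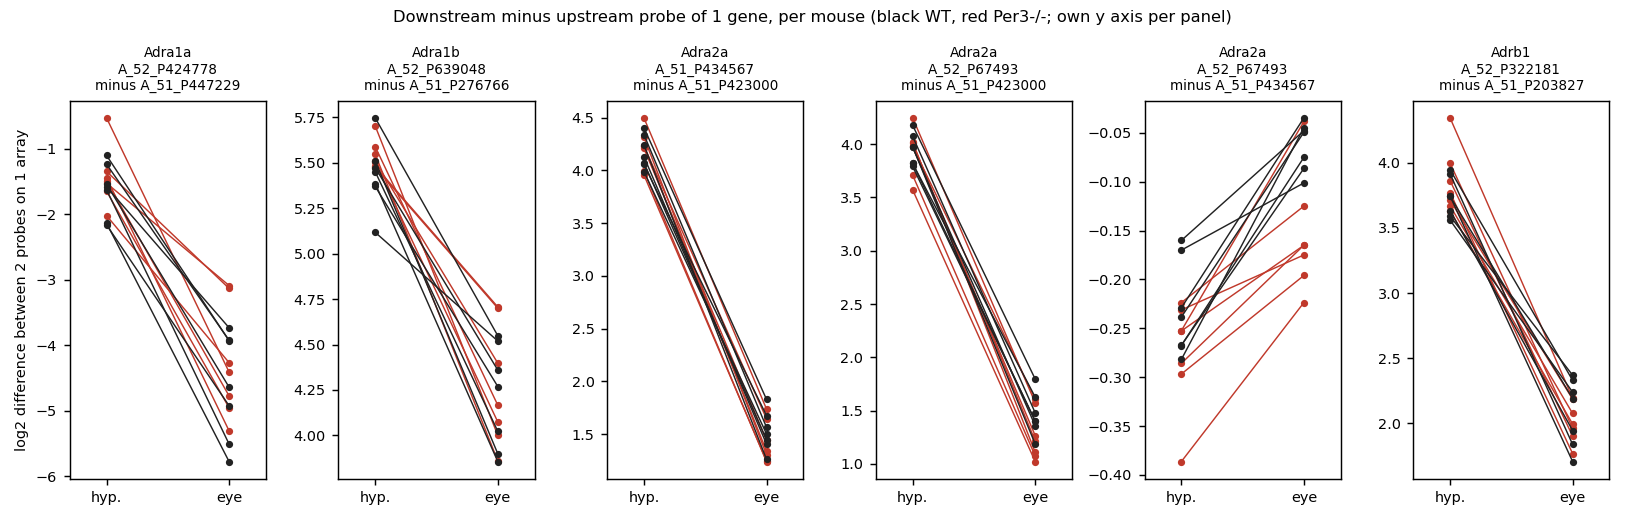
Log2 signal of the downstream probe minus that of the upstream probe on the same array (y axis, own scale per panel), in hypothalamus and eye (x axis), for the 6 pairs of probes of 1 gene. Each line is 1 of 14 mice (black for WT, red for Per3-/-), matched between tissues by genotype and replicate number. Every line falls from hypothalamus to eye in 5 panels, among them Adra1a, whose downstream probe is at background in the eye, while the adjoining Adra2a probes rise by 0.06 to 0.24.

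The second comparison asks whether Per3-/- mice differed from WT mice. In the hypothalamus none of the 12 probes passed an adjusted p of 0.05 (limma; 0.0413% of all probes did), and none reached an unadjusted p of 0.05 (2.82% of all probes did). In the eye none passed the adjusted threshold (0.0194% of all probes did), and 1 of 12 had an unadjusted p under 0.05 (1.8% of all probes did). The methods' t-test gave 0 of 12 at both thresholds in either tissue. The median difference, Per3-/- minus WT, was 0.00 in the hypothalamus and -0.01 in the eye over the 12 probes, and -0.01 and 0.00 over all probes.

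The intervals bound, for 1 probe at a time, the change that was missed. They come from fits without a slide or replicate block, so spread between slides is part of them. In the hypothalamus the 95% interval of all 12 probes lay within a 1.5-fold change in either direction, and in the eye 9 of 12 did, with all 12 inside 2-fold. These 12 include Adra1a A_52_P424778, well above background on 0 of 14 eye arrays. Its eye interval lies between background signals and bounds no change in Adra1a. Adra2a A_51_P434567 ran from 2.04 to 2.31 (median 2.18) in WT and from 2.06 to 2.44 (median 2.22) in Per3-/- hypothalamus, a difference of 0.05 (95% interval -0.07 to 0.16, adjusted p = 0.991). Adra1b A_52_P639048 ran from 2.51 to 3.24 (median 3.0) and from 2.67 to 3.25 (median 2.97), a difference of 0.01 (95% interval -0.21 to 0.22, adjusted p = 0.997). Adra2c ran from -1.47 to -1.13 (median -1.34) and from -1.51 to -1.19 (median -1.32), a difference of -0.03 (95% interval -0.15 to 0.08, adjusted p = 0.991). In all 3 the genotypes overlapped.

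The lowest unadjusted p in the hypothalamus belonged to Adra2b. Its signal ran from -5.55 to -5.10 (median -5.21) in WT and from -5.70 to -5.30 (median -5.36) in Per3-/- mice, a difference of -0.15 (standard error 0.08, adjusted p = 0.991; two-sided exact permutation test p = 0.0654, and 0.0941 within slides). Adrb1 A_51_P203827 had -0.14 (standard error 0.08) and Adra1b A_51_P276766 had -0.13 (standard error 0.08), with exact permutation p of 0.0875 and 0.107. On each of the 4 slides the Per3-/- mean of these last 2 probes lay below the WT mean, by 0.04 to 0.37, while the groups overlapped. Adra2a A_51_P434567 went the other way, with the Per3-/- mean above the WT mean on all 4 slides, by 0.02 to 0.10. How many of all probes kept 1 direction over the slides was not counted in either tissue. For Adra1a the difference was -0.04 with A_51_P447229 and 0.15 with A_52_P424778 (0.01 without Per3-/- mouse 7), for Adra1d 0.01, and for Adrb1 A_52_P322181 -0.01.

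In the eye the probe with an unadjusted p under 0.05 was Adra1a A_52_P424778, marked above background on 0 of 14 eye arrays. It ran from -8.49 to -7.80 (median -8.44) in WT and from -8.58 to -7.28 (median -7.79) in Per3-/- mice, a difference between background signals of 0.44 (limma, unadjusted p = 0.0475, adjusted p = 1), and the exact permutation p was 0.0688. The other differences in the eye lay between -0.37 (Adra2b) and 0.08 (Adra1a A_51_P447229). Adra2a A_52_P67493 was at -0.14 (95% interval -0.29 to 0.02, exact permutation p = 0.06), with 4 of 7 Per3-/- mice below every WT mouse and the Per3-/- mean lower on all 4 slides. How many of all probes showed such a separation was not counted. The adjoining Adra2a probe A_51_P434567 was at -0.04 (exact permutation p = 0.486), with 2 of 7 Per3-/- mice below every WT mouse. The upstream Adra2a probe A_51_P423000 went the other way, at 0.06.

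Adra2b and Adra1a had the widest intervals in the eye. Adra2b ran from -4.35 to -2.94 (median -3.95) in WT and from -4.75 to -3.62 (median -4.19) in Per3-/- mice, a difference of -0.37 (95% interval -0.92 to 0.18). Within slides that difference ran from -1.24 to 0.07. Adra1a A_51_P447229 ran from -4.57 to -2.47 (median -3.84) in WT and from -4.49 to -2.90 (median -3.53) in Per3-/- mice, a difference of 0.08 (95% interval -0.66 to 0.82).

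Most of the spread of Adra1a in the eye followed the slide. The 4 arrays of slide 4, mice 7 and 8 of both genotypes, ran from -3.09 to -2.47 and lay above all others, and the 4 arrays of slide 2, mice 3 and 4 of both genotypes, ran from -4.57 to -4.15 and lay below all others. Adra1d showed slide 4 in the same place, with -1.59 to -1.32 against -2.57 to -1.75 on the other slides. Both genotypes lay on each slide, and each slide holds different mice, so slide and mouse cannot be told apart. With slide as a block no receptor probe passed the adjusted threshold in either tissue.

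**Figure D4:**
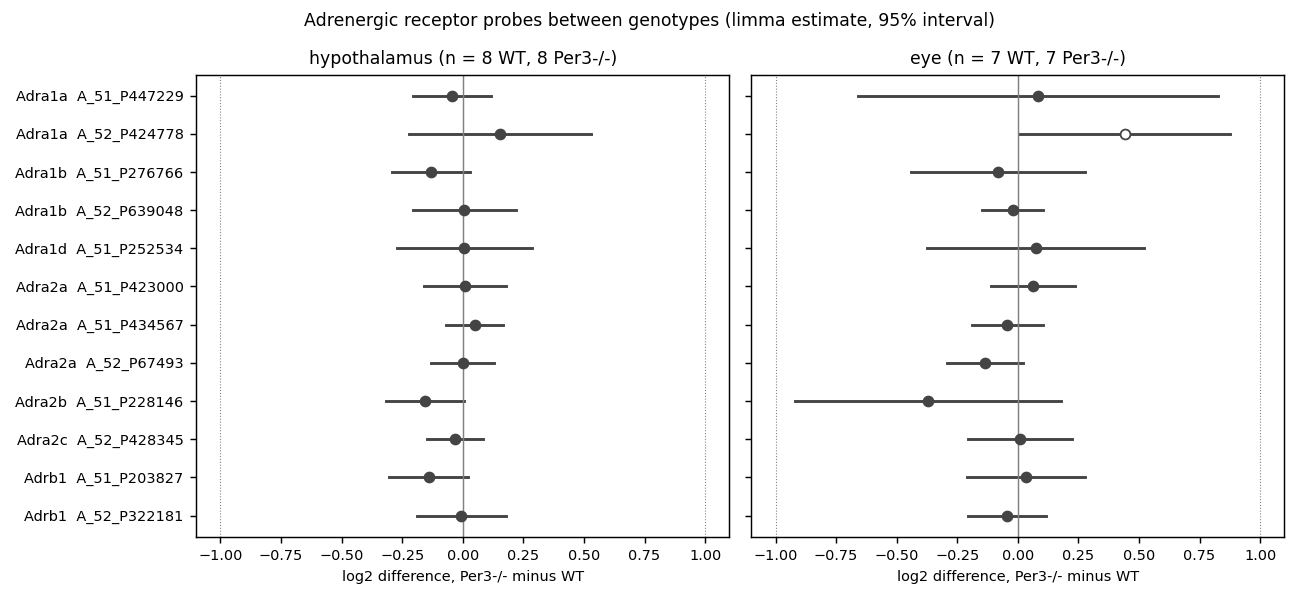
Log2 difference, Per3-/- minus WT (x axis; points, limma estimate; lines, 95% interval; dotted lines, 2-fold), for the 12 receptor probes (y axis) in the hypothalamus (left) and the eye (right). The open point is not above background in the eye; every hypothalamic interval spans 0, and the eye intervals of Adra1a and Adra2b are the widest.

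The difference in genotype effect between tissues passed the adjusted threshold for none of the 12 probes (limma interaction term; 0.00486% of all probes did), and none had an unadjusted p under 0.05. The estimates, eye effect minus hypothalamic effect, lay between -0.22 and 0.29.

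The third question is how the rest of the adrenergic pathway behaved, from 46 genes in 4 lists, all measured, with the brightest probe of each. Between genotypes no pathway gene passed the adjusted threshold in either tissue (limma). At an unadjusted p under 0.05, 1 of 46 was lower in the Per3-/- hypothalamus and 3 of 46 were higher in the Per3-/- eye, against 2.82% and 1.8% of all probes in either direction. Between tissues 10 were higher in the eye and 36 higher in the hypothalamus at an adjusted p under 0.05, of which 4 and 29 by more than 2-fold. Over all probes 83.1% passed in either direction, 26.6% with more than 2-fold in favour of the eye and 18.0% in favour of the hypothalamus. The counts of each list are to be read against these shares. The sets are unlike, since the lists take the brightest probe of each gene and the shares include dim probes. A share over the brightest probe of every gene was not counted.

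Genes that make, store and clear noradrenaline numbered 10, with 3 higher in the eye and 7 higher in the hypothalamus (median -1.04, against 0.19 over all probes). The 7 include Slc22a3, which was well above background on 0 arrays of either tissue, so that its difference of -0.89 lies between background signals. Tyrosine hydroxylase (Th), the first step of catecholamine synthesis, ran from -0.44 to 1.89 (median 0.60) in the hypothalamus and from -3.77 to -3.04 (median -3.54) in the eye, a difference of -4.14 (standard error 0.17). Ddc, the next step, differed by -4.06 (standard error 0.09). Dopamine beta-hydroxylase (Dbh), the step that makes noradrenaline, went the other way, with -5.55 to -4.86 (median -5.25) in the hypothalamus and -4.22 to -2.86 (median -3.71) in the eye, a difference of 1.72 (standard error 0.12).

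The noradrenaline transporter Slc6a2 was not well above background on any hypothalamic array and was above it on all 14 eye arrays. Its eye values ran from -4.77 to -3.26 (median -3.73). As a bound set like that of Adra1a A_52_P424778 and given without a test, Slc6a2 was at least 6.45-fold higher in the eye. This bound was not recomputed under normexp, where the Adra1a difference fell below its own bound. In the eye it had the lowest unadjusted p of its list between genotypes, with -4.77 to -3.60 (median -3.85) in WT and -4.39 to -3.26 (median -3.30) in Per3-/- mice, a difference of 0.53 (standard error 0.23, unadjusted p = 0.0369, adjusted p = 1 from limma). The groups overlapped. In the hypothalamus the lowest p of the list was that of Pnmt, which makes adrenaline, at 0.14 (standard error 0.09, adjusted p = 0.991).

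Of the 9 G protein alpha subunits 2 were higher in the eye and 7 higher in the hypothalamus (median -0.55). Gna14, a Gq family member, was higher in the eye by 3.38 (standard error 0.17) and Gnai3 by 0.86 (standard error 0.04). Gnai1 and Gnaq were higher in the hypothalamus, by differences of -2.34 (standard error 0.04) and -1.59 (standard error 0.05). Between genotypes the lowest p values were those of Gnai3 in the hypothalamus (0.10, adjusted p = 0.991) and Gnaz in the eye (-0.14, limma, adjusted p = 1).

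Of the 18 effectors 3 were higher in the eye, none of them by 2-fold, and 15 were higher in the hypothalamus, 14 of them by more than 2-fold (median -1.82). Phospholipase C beta 1 (Plcb1) differed by -3.32 (standard error 0.12) and the potassium channel subunit Kcnj3 by -3.15 (standard error 0.06). The 2 largest in favour of the eye were adenylate cyclase Adcy6 at 0.56 (standard error 0.05) and Plcb3 at 0.38 (standard error 0.06). Between genotypes the lowest p values were those of the protein kinase A subunits Prkaca in the hypothalamus (-0.07, adjusted p = 0.991) and Prkacb in the eye (0.10, limma, adjusted p = 1).

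Of the 9 receptor kinases, arrestins and RGS proteins, which switch the receptors or their G proteins off, 2 were higher in the eye and 7 in the hypothalamus (median -1.12). Grk3 differed by -3.23 (standard error 0.04) and Rgs4 by -2.35 (standard error 0.06), while Rgs5 was higher in the eye by 1.03 (standard error 0.07) and Grk5 by 0.33 (standard error 0.05). Rgs4 also had the lowest genotype p of its list in the hypothalamus, with 2.35 to 2.90 (median 2.66) in WT and 2.18 to 2.77 (median 2.42) in Per3-/- mice, a difference of -0.22 (standard error 0.09, unadjusted p = 0.024, adjusted p = 0.991 from limma). Grk5 had the lowest in the eye, with -1.27 to -0.95 (median -1.17) in WT and -1.05 to -0.79 (median -0.93) in Per3-/- mice, a difference of 0.21 (standard error 0.06, unadjusted p = 0.00498, adjusted p = 1 from limma). Both pairs of groups overlapped.

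**Figure D5:**
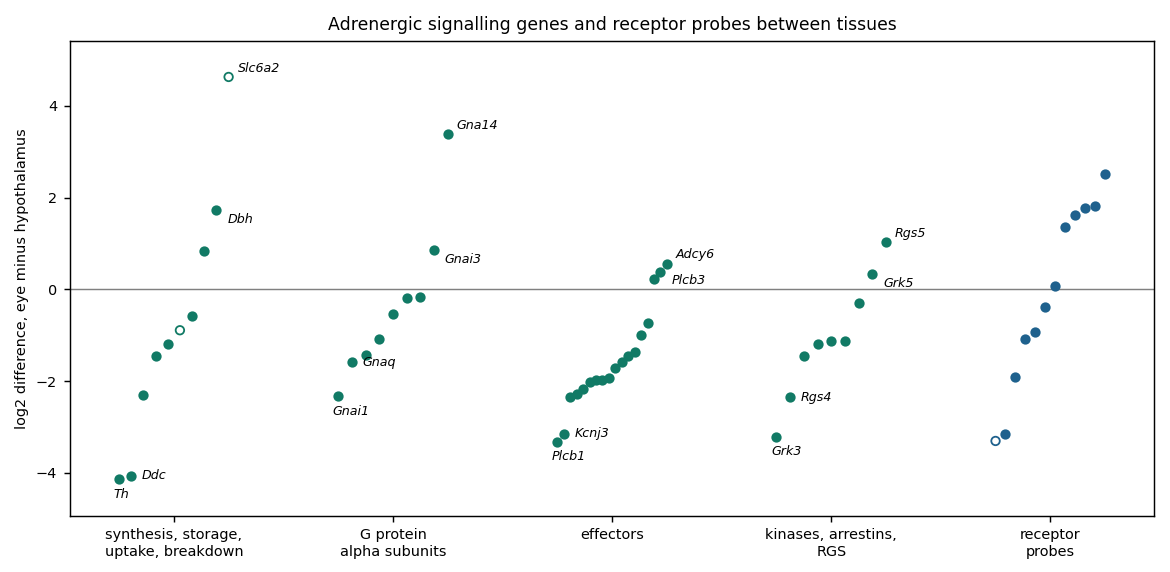
Log2 difference, eye minus hypothalamus (y axis, limma estimate), for 46 adrenergic signalling genes in 4 lists (green) and the 12 receptor probes (blue), ordered by value within each column (x axis). Open points were never well above background in at least 1 tissue; most pathway genes lie below 0, while receptor probes are spread evenly, 6 above and 6 below.

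The genes whose arrays varied most like each receptor's brightest probe were taken over the 16 hypothalamic arrays, among 24753 probes of named genes well above background on all of them. These correlations of deviations from the genotype means are descriptions, since the arrays share scaling and slides and each is the highest of many. Among the closest to Adra1b A_52_P639048 were Akap2 (r = 0.92) and Rsrc1 (0.90), and the closest to Adra2a A_51_P434567 were Shc3 (0.91), Ermp1 (0.87) and Mobp (0.86). Among the closest to Adrb1 A_52_P322181 were Fkbp3 (r = 0.93) and Vldlr (0.91), and Adra2c was closest to Ndst4 (0.88), Usp1 (0.84) and Arl15 (0.83). Adra1a A_51_P447229 was closest to Pde12 (r = 0.94), Serpinb9e (0.91) and Prx (0.90), Adra1d to Vmn1r195 (0.91), Tmem210 (0.87) and Kcp (0.86), and Adra2b to Prrx1 (0.85), Socs7 (0.79) and Sh2d7 (0.76). No receptor was among the 3 closest genes of another, and the median r between probes of different receptor genes was 0.07 in the hypothalamus (60 pairs) and 0.11 in the eye (50 pairs).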

How the data were processed

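The authors hybridised Cy3-labelled RNA to 60-mer Agilent arrays and extracted each spot's intensity with Feature Extraction. Version 10.7.1.1 is the one recorded here from the file headers, and the tissues did not share an extraction version. The deposited processed intensity is background-subtracted, on a linear scale and not normalized between arrays. A second deposited table holds the authors' log2 values, centred on each probe's median within a tissue, and was used as an alternative (r of at least 0.9999 with the values here after the same centring, and column medians from -0.0725 to 0.0803). The well-above-background and outlier marks were deposited with the same files.

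Here log2 was taken of each spot and spots marked uneven or outlier were dropped (91 or fewer per array). Spots of 1 probe were then averaged on the log2 scale, and the array's 75th percentile over probes was subtracted. Genotypes were compared within a tissue and tissues over all 30 arrays with limma 3.58.1 in R 4.3.3, and p-values were adjusted by Benjamini-Hochberg over 41174 probes. The tissue and interaction fits had the mouse as a random block (correlation 0.059), taking arrays of the same genotype and replicate number as 1 mouse. In tests on simulated data, 80 of 100 probes changed by 1 log2 unit were recovered in the hypothalamus and 63 of 100 in the eye. The number of arrays limits the precision. With 1 array per mouse and tissue, the spread behind the p-values joins that of mice, slides and hybridisations. Between tissues the p-values do not cover differences of slide and extraction version, since each held 1 tissue only. Exact permutation tests had 12870 arrangements in the hypothalamus and 3432 in the eye, and 1296 and 432 within slides. Calculations used Python 3.11.15, numpy 2.4.6, scipy 1.17.1 and pandas 2.3.3.

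The members, lists and tests were chosen with earlier results of these data known. Named were every receptor probe, the lowest genotype p of each pathway list in each tissue, its 2 largest tissue differences each way, and the 3 genes most alike, some of which are not reported here. Eye probes were matched to the hypothalamic files by probe name, since the eye files hold no positions.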

Additional observations from a re-analysis of the deposited data

Results flagged for a closer look

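Over the 12 receptor probes and 4 groups, 48 sets of arrays were examined for a sample far from the others (Dixon's criterion at 95%), and 3 were marked, close to the 1 in 20 that chance gives. For Adra1a A_52_P424778, Per3-/- mouse 7 lay at -3.70 in the hypothalamus against -4.61 for the next array. WT mouse 1 lay at -7.80 on the same probe in the eye against -8.24 for the next, both below the level well above background. For Adra2c, Per3-/- mouse 5 lay at 0.78 in the eye against 1.17 for the next lowest. None of these arrays changed a call on its probe when it was left out.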

How the results depend on the processing

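The count of receptor probes at an adjusted p under 0.05 was 0 for the genotype comparison of each tissue and for the interaction under every alternative run (quantile normalization, normexp background correction, a filter on dim probes, and leaving out each array, or each mouse for the interaction; for genotype also slide block, the authors' values and the methods' t-test). Unadjusted, 0 to 2 probes passed in the hypothalamus and 0 to 1 in the eye. Between tissues the count was 10 with WT arrays only, 11 under the other alternatives (11 with no mouse block), and 10 to 11 without each mouse. Replicate numbers were not taken to pair the genotypes, because not every same-numbered pair had a correlation over 0.1. Correlations passed 0.1 for 4 of 8 numbers in the hypothalamus (-0.211 to 0.388) and for 5 of 6 in the eye (0.0199 to 0.67). In the eye same-numbered mice thus deviated together for most numbers, which the main eye fits leave out. With the replicate number as a block, 0 probes passed in either tissue and 3 estimates near 0 in the eye turned sign, Adra1a A_51_P447229 to -0.0087, Adra1b A_52_P639048 to 0.0003 and Adrb1 A_51_P203827 to -0.0597. Under that block Adra1a A_52_P424778, at background in the eye, went from 0.44 to 0.64 (limma, unadjusted p = 0.00609, adjusted p = 0.999). Quantile normalization turned Adra1d A_51_P252534 to -0.0019 and Adra2a A_51_P423000 to -0.0024 in the hypothalamus. Normexp turned Adra1a A_52_P424778 to -0.0344, Adra1d to -0.0906, Adra2a A_51_P423000 to -0.0095 and Adra2a A_52_P67493 to 0.0013 in the hypothalamus, and Adra1b A_51_P276766 to 0.2654, Adra2b to 0.0276 and Adra2c to -0.0496 in the eye. Under normexp the median of all probes moved to -0.08, 0.18 and 0.37 for hypothalamus genotype, eye genotype and tissue. Normexp read the mean signal of a spot on hypothalamic arrays and the median signal on eye arrays, so its tissue values are not a change of background correction alone. The cause of these moves was not tested. Leaving out 1 array moved these estimates across 0 in the hypothalamus for Adra1b A_52_P639048 (-0.0598 to 0.0497), Adra1d (-0.0802 to 0.0551), Adra2a A_51_P423000 (-0.0237 to 0.0455), Adra2a A_52_P67493 (-0.0394 to 0.0226) and Adrb1 A_52_P322181 (-0.0675 to 0.033), and in the eye for Adra1a A_51_P447229 (-0.0643 to 0.2851), Adra1d (-0.0303 to 0.1775), Adra2c (-0.0341 to 0.076) and Adrb1 A_51_P203827 (-0.0328 to 0.0983). No tissue difference changed sign. The probe pair values were recomputed under the tissue alternatives, chosen after seeing the data, and none changed sign. Dim probes limit what can be seen in the eye for Adra1a A_52_P424778.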

Other observations

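There are 8 further probes outside the naming rule, being either described as a receptor in the files or assigned to an unnamed transcript within 100 kb of one. A_51_P179442, described as the beta 3 receptor, was well above background on none of 16 hypothalamic arrays and on 4 of 14 eye arrays, which were the 4 of slide 4 (mice 7 and 8 of both genotypes), the slide that also stood apart for Adra1a and Adra1d. A_52_P295491, described as the alpha 1d receptor but on the strand opposite to the Adra1d probe, was well above background on all arrays, and its eye minus hypothalamus difference was 0.03 (95% interval -0.38 to 0.45, limma, adjusted p = 0.88), against 1.82 for the named probe. A_52_P223168 targets an unnamed cDNA at chr14:67256026-67256085, on the strand opposite to the Adra1a probes. In the hypothalamus it ran from -6.07 to -5.61 (median -5.90) in WT and from -6.53 to -6.08 (median -6.39) in Per3-/- mice, and all 8 Per3-/- mice lay below every WT mouse. This amounts to -0.47 (limma, standard error 0.08, adjusted p = 0.067), with an exact permutation p of 0.000155 and 0.00154 within slides. The probe was singled out after its values were seen, and was well above background on 7 of 8 WT and 4 of 8 Per3-/- arrays. In the eye the difference was -0.01 (95% interval -0.79 to 0.77).

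The gap between the 2 adjoining Adra2a probes was also compared between genotypes, one of 12 such comparisons made after the data were seen. In the eye A_52_P67493 minus A_51_P434567 had a mean of -0.06 ± 0.02 (SD) in 7 WT mice and -0.16 ± 0.06 (SD) in 7 Per3-/- mice, and 6 of 7 Per3-/- mice had a value under the whole WT range (exact permutation test, two-sided, p = 0.0052, and 0.014 within slides, not adjusted). In the hypothalamus the means were -0.24 ± 0.05 (SD) and -0.29 ± 0.06 (SD) with 8 mice each, exact permutation p = 0.095, and 0.023 within slides.

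Across the 14 eye arrays the deviations of the Adra2a probe A_51_P423000 and the Adra2c probe from their genotype means had r = 0.93, the highest between probes of different receptor genes. In the hypothalamus the highest was that of Adra1b A_51_P276766 with Adrb1 A_51_P203827, at r = 0.75 over 16 arrays. Both are descriptions over arrays that share scaling and slides.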
